A study of Mus musculus with 12 samples.

Results

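The genes described here are 10 genes of pigment production in mouse melanocytes, chosen by name from the 22180 genes measured. They are the melanin enzymes Tyr, Tyrp1 and Dct, the melanosome proteins Pmel and Mlana, the melanosome transporters Slc45a2 and Oca2, the receptor Mc1r, and the transcription factors Sox10 and Mitf. Each of the 10 had 1 row on the array that named that gene alone. Melanocytes of mouse back skin lie mainly in the hair follicles, where they make melanin in organelles called melanosomes during the growth phase of the hair cycle and pass it to the keratinocytes of the hair shaft. Tyrosinase (Tyr) carries out the first and rate-limiting step from tyrosine, and Dct and Tyrp1 act on later intermediates of brown-black eumelanin. Mitf, which Sox10 helps to switch on, activates the enzyme genes through an E-box motif called the M-box, and signalling through Mc1r raises Mitf activity.

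RNA was measured on 12 expression arrays, each holding a pool of dorsal skin from 4 or 5 mice, 58 mice in all. The 6 groups were labelled IL-17C+KO involved, IL-17C+KO uninvolved, IL-17C+ involved, IL-17C+ uninvolved, IL-6KO and WT, where IL-17C+ is a transgene for the cytokine IL-17C and KO is the loss of IL-6. All were given as C57Bl/6 mice of both sexes, and each group had 1 pool at 14 weeks of age and 1 at 10 weeks. "Involved" and "uninvolved" are areas of skin of the transgenic mice, and the mice without the transgene gave skin of similar regions. The sources used here do not give the promoter behind the transgene, the extent of the Il6 deletion, or whether involved and uninvolved pools shared mice. In pools of whole skin, fewer melanocytes and less RNA per melanocyte cannot be told apart.

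The array values of the altered genes went against the labels in places, so every direction below rests on the labels alone. Il17c had log2 intensities of 4.16 and 4.74 (14 and 10 weeks, the order of every pair of pools below) in the pools labelled IL-17C+ uninvolved, against 6.17 and 6.30 in those labelled IL-6KO, which carry no transgene. Il6 had 5.00 and 4.93 in IL-17C+KO uninvolved skin, against 2.88 and 2.92 in WT skin. The sources used here do not say whether either row reads the transgene or the deleted stretch. The skin type field also calls IL-6KO skin involved and WT skin uninvolved. Some marker means differed by site in opposite directions in IL-17C+KO and IL-17C+ mice. The mean of 8 mast cell genes was 4.53 in IL-17C+KO involved and 5.54 in IL-17C+KO uninvolved skin. It was 6.06 in IL-17C+ involved and 4.54 in IL-17C+ uninvolved skin. The group mean of 14 hair shaft genes was lower in involved skin of both. In IL-17C+ mice this held at 14 weeks (7.30 involved, 9.26 uninvolved) and not at 10 weeks (8.09 involved, 7.64 uninvolved). Whether the IL-17C+KO site labels were exchanged was not tested, and each comparison or interaction using them carries this limit. The skin genes Krt14 (9.49 to 11.31), Krt10 (12.06 to 12.62) and Col1a1 (10.59 to 13.34) were high on all 12 arrays. The medians of the 12 arrays lay between 3.97 and 4.23 on the log2 scale, and the files give no detection call, so a gene below the median is described here as dim.

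Promoter letters are shown first, as a description, and their part in how the genes vary was not tested. RefSeq promoter windows (GRCm38.p6, 250 bases before to 50 after an annotated transcript start) were held for 6 of the 10 genes: Tyr, Tyrp1, Dct, Oca2, Mc1r and Mitf, the last with 3 windows. The M-box core TCATGTG, searched on both strands, was found in 4 of these genes, and the variant TCACGTG in none. Among 32851 windows of all genes, 3.77% held each core. The stretches around the match on the gene's own strand follow, with TCATGTG in capitals. They lie at chr4:80834136-80834202 (plus strand) for Tyrp1, chr7:87493498-87493564 (minus strand) for Tyr, chr14:118052361-118052427 (minus strand) for Dct and chr8:123407000-123407066 (plus strand) for Mc1r.
Tyrp1: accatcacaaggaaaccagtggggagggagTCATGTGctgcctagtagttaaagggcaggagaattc
Tyr: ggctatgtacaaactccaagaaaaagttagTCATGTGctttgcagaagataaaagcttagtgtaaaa
Dct: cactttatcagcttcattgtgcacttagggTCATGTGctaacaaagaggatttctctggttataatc
Mc1r: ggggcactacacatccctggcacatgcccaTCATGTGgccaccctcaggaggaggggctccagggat
Positions are counted from the transcript start of each window, which for Tyrp1 lies inside the span of the gene given below. The core begins 22 bases before the start in Tyr, 47 in Tyrp1, 52 in Mc1r and 151 in Dct. Dct holds a further copy on the opposite strand, 232 bases before the start. The longest stretch common to the windows of Tyr, Tyrp1 and Dct is GTCATGTGCT, which contains the M-box core. It was found in 0.186% of all windows, those of 42 of 27025 genes. The stretch was taken from these same 3 windows, so that share tests nothing about them. The SOX core ACAAAG was found on either strand in 18.7% of all windows, the core ACAATG in 12.6%, the core TCAATG in 8.67%, and the core TCAAAG in 5257 windows. At least 1 of them stood in the windows of Dct, Tyrp1, Oca2, Mc1r and Mitf and none in that of Tyr, while 44.0% of all windows held at least 1. These matches describe letters in these windows and not binding.

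Tyrp1, which acts late in eumelanin synthesis and stabilises tyrosinase, lies on chromosome 4 from 80834123 to 80851736. Its log2 intensity at 14 and 10 weeks was 6.79 and 5.19 in IL-17C+KO involved skin, 7.30 and 6.58 in IL-17C+KO uninvolved skin, 6.96 and 7.08 in IL-17C+ involved skin, 6.56 and 5.76 in IL-17C+ uninvolved skin, 7.06 and 6.67 in IL-6KO skin, and 5.96 and 4.97 in WT skin. Both WT pools lay below all pools of IL-17C+ involved, IL-17C+KO uninvolved and IL-6KO skin. The 10-week pool of IL-17C+KO involved skin was nearly as low as the 10-week WT pool, while its 14-week pool lay among the high groups. In the order of group means, IL-17C+ involved, IL-17C+KO uninvolved and IL-6KO skin overlapped one another. IL-17C+ uninvolved skin came next and did not overlap IL-6KO skin. The involved IL-17C+KO and the WT pools followed, each overlapping its neighbour. With its 14-week pool at 6.79, IL-17C+KO involved skin also overlapped IL-6KO skin, whose lower pool was 6.67.

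Dct, the dopachrome tautomerase (chromosome 14, 118012790 to 118052246), had nearly the same profile. It measured 7.81 and 6.95 in IL-17C+KO involved skin, 8.11 and 7.65 in IL-17C+KO uninvolved skin, 7.93 and 8.16 in IL-17C+ involved skin, 7.69 and 6.53 in IL-17C+ uninvolved skin, 7.67 and 7.65 in IL-6KO skin, and 6.96 and 5.63 in WT skin. Its means ran from IL-17C+ involved skin down to WT skin, and every neighbour in that order overlapped. The lowest single pool of Dct, as of Tyrp1 and Tyr, was the 10-week WT pool. Tyr (chromosome 7, 87424771 to 87493512) was dim, below the array median on all 12 arrays. It measured 3.21 and 2.74 in IL-17C+KO involved skin, 3.20 and 3.39 in IL-17C+KO uninvolved skin, 3.50 and 3.30 in IL-17C+ involved skin, 3.30 and 2.91 in IL-17C+ uninvolved skin, 3.56 and 3.91 in IL-6KO skin, and 3.08 and 2.70 in WT skin. The IL-6KO pools were the highest, and they did not overlap any other group.

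Pmel, the protein that forms the fibrils on which melanin is laid down, lies on chromosome 10 from 128695888 to 128720238. It measured 6.02 and 5.43 in IL-17C+KO involved skin, 6.08 and 5.95 in IL-17C+KO uninvolved skin, 6.41 and 6.87 in IL-17C+ involved skin, 6.06 and 5.22 in IL-17C+ uninvolved skin, 6.22 and 6.15 in IL-6KO skin, and 5.69 and 5.34 in WT skin. IL-17C+ involved skin stood above every other group without overlap. Mlana, a melanosome membrane protein known to bind Pmel, lies on chromosome 19 from 29697541 to 29708447. It measured 5.46 and 4.88 in IL-17C+KO involved skin, 6.14 and 5.90 in IL-17C+KO uninvolved skin, 6.27 and 6.45 in IL-17C+ involved skin, 6.73 and 5.58 in IL-17C+ uninvolved skin, 5.42 and 5.98 in IL-6KO skin, and 6.00 and 5.79 in WT skin. Here the lowest group was IL-17C+KO involved skin, and WT skin lay in the middle of the order.

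Slc45a2, a membrane transporter that affects the pH of the melanosome, lies on chromosome 15 from 11000721 to 11029233. It measured 3.64 and 3.83 in IL-17C+KO involved skin, 3.98 and 3.82 in IL-17C+KO uninvolved skin, 4.75 and 4.98 in IL-17C+ involved skin, 4.39 and 4.47 in IL-17C+ uninvolved skin, 3.87 and 4.26 in IL-6KO skin, and 3.83 and 3.92 in WT skin. All 4 IL-17C+ pools with IL-6 lay above the 8 others, and involved did not overlap uninvolved skin. It was above the array median on 5 of 12 arrays, so the low values are those of a dim row. Oca2, a melanosomal anion channel (chromosome 7, 56239593 to 56536518), ranged from 3.54 to 4.64, was above the median on 6 arrays, and its groups overlapped all along the order.

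Mc1r, the receptor for melanocortin (chromosome 8, 123407082 to 123410744), ranged from 2.85 to 3.97, was below the median on all 12 arrays, and its groups overlapped likewise. Sox10, a factor of the neural crest lineage that Schwann cells use too (chromosome 15, 79154913 to 79164490), ranged from 3.73 in IL-17C+ uninvolved skin to 4.53 in IL-17C+ involved skin and was above the median on 7 arrays. Mitf (chromosome 6, 97807002 to 98021360), which mast cells and macrophages also use, ran another way. It measured 6.48 and 6.79 in IL-17C+KO involved skin, 6.53 and 6.46 in IL-17C+KO uninvolved skin, 6.07 and 5.95 in IL-17C+ involved skin, 6.83 and 7.01 in IL-17C+ uninvolved skin, 6.44 and 5.76 in IL-6KO skin, and 6.57 and 6.10 in WT skin. IL-17C+ uninvolved skin was the highest group and did not overlap the next.

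**Figure D1:**
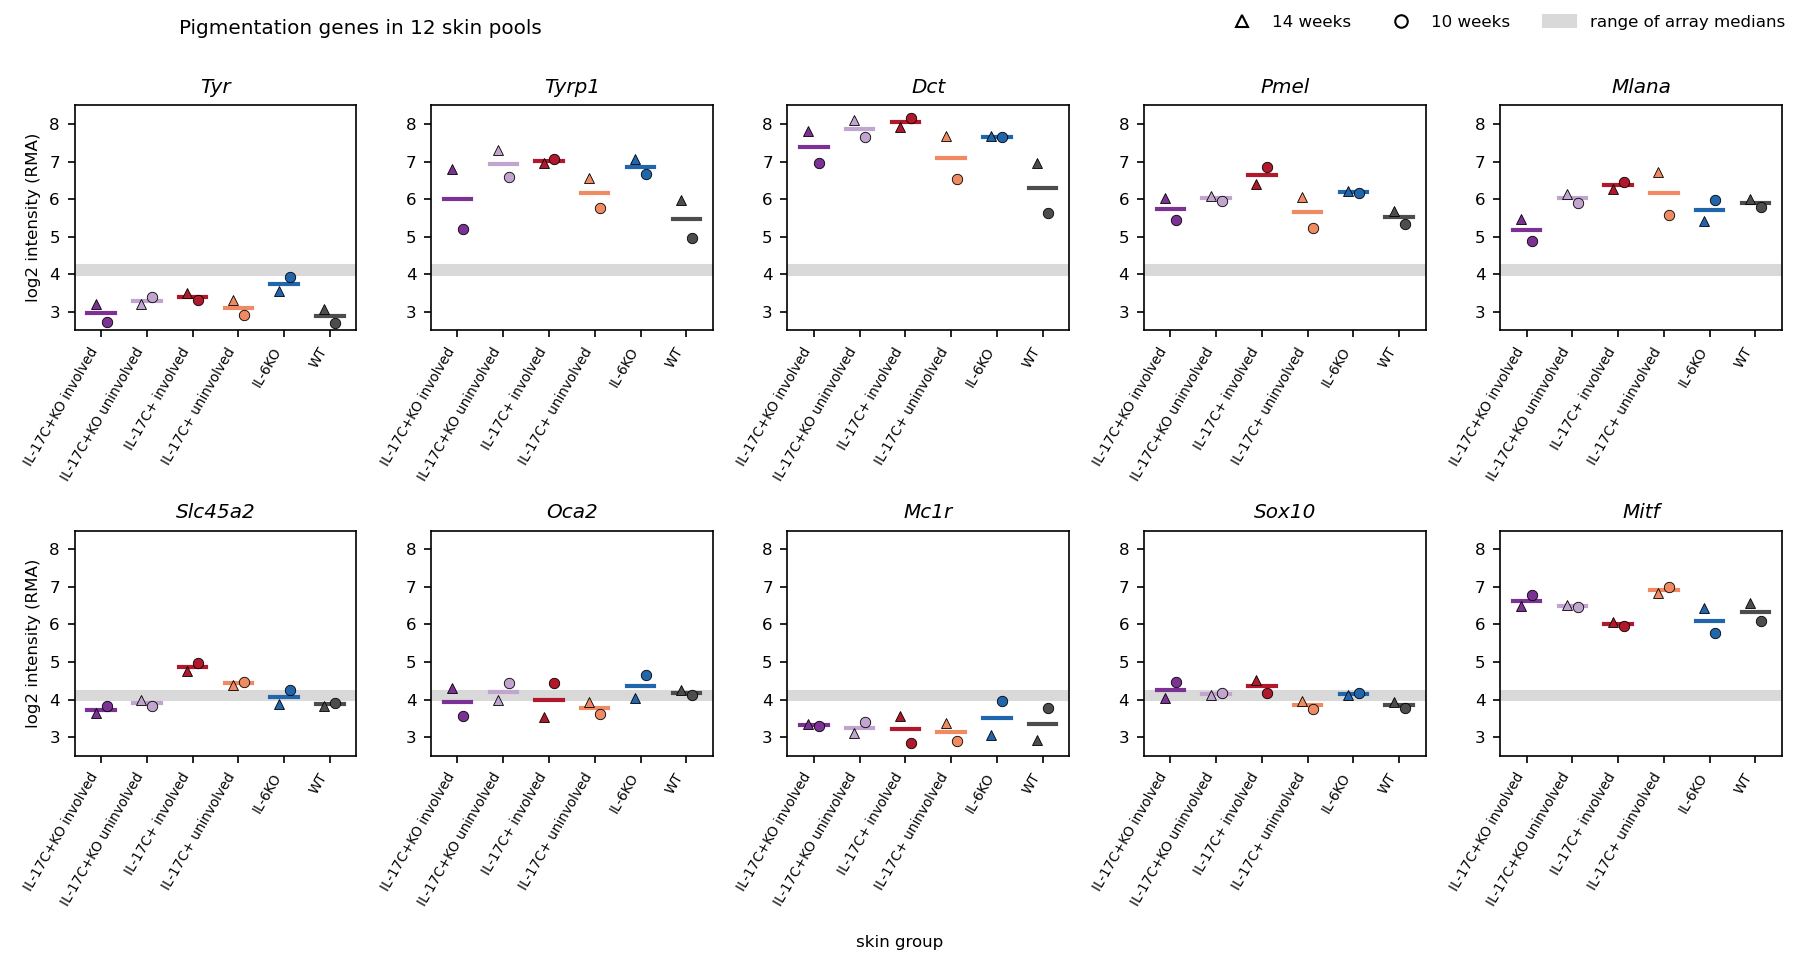
Log2 intensity (y axis, same scale in all panels) of the 10 pigmentation genes by skin group (x axis). Each symbol is 1 pool (triangle 14 weeks, circle 10 weeks), the bar is the mean of the 2 pools and the grey band spans the 12 array medians. Tyrp1 and Dct are lowest in the 10-week WT pool, at 4.97 and 5.63, and Slc45a2 is highest in the 4 pools labelled IL-17C+.

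The comparison of IL-17C+ involved with WT skin asks what the transgene does where the skin is affected. Of the 10 genes, 3 rose, Dct, Tyrp1 and Slc45a2, and none fell, by limma with Benjamini-Hochberg adjustment over all 22180 genes. Of all genes, 1.8% passed in either direction and 1.1% rose. Dct averaged 8.04 ± 0.16 in IL-17C+ involved skin and 6.29 ± 0.94 in WT skin (SD, n = 2 each), a log2 difference of 1.75 ± 0.35 (SE), or 3.37-fold, with an adjusted p of 0.0266 in limma. Tyrp1 averaged 7.02 ± 0.083 in IL-17C+ involved skin and 5.47 ± 0.70 in WT skin, a difference of 1.55 ± 0.33, or 2.94-fold, with an adjusted p of 0.0343 in limma. Slc45a2 averaged 4.86 ± 0.17 in IL-17C+ involved skin and 3.88 ± 0.060 in WT skin, a difference of 0.99 ± 0.21, or 1.98-fold, with an adjusted p of 0.0369, and both WT pools were dim for it. All 3 were higher in involved skin at both ages. For Dct the gap was 0.98 at 14 weeks and 2.53 at 10 weeks, and for Tyrp1 1.0 and 2.11, so it was wider at 10 weeks, whereas Slc45a2 differed by 0.91 and 1.06.

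Pmel had a difference of 1.13 ± 0.29 that missed the threshold (adjusted p 0.0761), and Tyr (0.51 ± 0.23), Sox10 (0.50 ± 0.23) and Mlana (0.47 ± 0.34) had positive values with adjusted p of 0.402 or more. Mitf, Oca2 and Mc1r had negative values, of -0.32, -0.19 and -0.15, with intervals that include 0. The median difference of the 10 genes was 0.51 on the log2 scale, against 0.01 for all genes. The groups did not overlap for 8 of the 10 genes, and the same held for 36.8% of all genes. The calls rest on few pools. Without the 10-week WT pool, or without the 10-week IL-17C+ involved pool, none of the 10 passed (Dct 1.31 and 1.26), without the 14-week WT pool Dct alone passed, and without the 14-week IL-17C+ involved pool Dct and Tyrp1 did. Slc45a2 did not pass when any 1 of the 4 pools was left out, although its value stayed between 0.93 and 1.05. In a limma fit of the 4 arrays of these groups alone, with no pool labelled KO, Tyrp1, Dct and Pmel passed (adjusted p 0.0306 for Pmel). Slc45a2 did not (0.056). That fit leaves few residual degrees of freedom, so its calls lean on the spread estimated over all genes.

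Other tissue components moved with the same comparison. Of 8 mast cell genes, 4 rose in IL-17C+ involved against WT skin, with list means of 6.10 and 6.02 in IL-17C+ involved skin and 4.60 and 4.60 in WT skin. Of 12 skeletal muscle genes, 10 fell, with list means of 7.86 and 8.18 in IL-17C+ involved skin and 10.78 and 10.05 in WT skin. Of 14 hair shaft genes, 2 rose, Krtap3-1 and Krt33a, with list means of 7.30 and 8.09 in IL-17C+ involved skin and 6.39 and 5.96 in WT skin. Of 8 macrophage genes Cd14 alone rose, and the median difference of that list was 0.07. Adgre1 had -1.01 ± 0.26 (adjusted p 0.077 in limma) and Itgam 1.28 ± 0.38 (adjusted p 0.142). None of 13 genes of hair follicle growth passed. None of 7 Schwann cell genes passed, and their list mean was 4.62 and 4.62 in IL-17C+ involved skin and 4.90 and 4.72 in WT skin. Of 7 skin tissue genes Krt14 rose (1.52 ± 0.30, adjusted p 0.0247 in limma). Krt1 had 1.99 ± 0.47 (adjusted p 0.0513) and Col1a2 -1.10 ± 0.30 (adjusted p 0.0957), and the median difference of that list was -0.09. The part of these components in the differences of the pigmentation genes was not tested.

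Involved and uninvolved skin of mice labelled IL-17C+ were compared to separate the affected site from the transgene itself. None of the 10 genes passed in limma, where 1.61% of all genes did. Of the 10, 5 had an unadjusted p under 0.05, as 2704 of all 22180 genes had. The largest values were those of Pmel, 1.0 ± 0.29 (adjusted p 0.132), Dct, 0.94 ± 0.35 (adjusted p 0.277), and Mitf, -0.91 ± 0.27 (adjusted p 0.142). For Mitf both involved pools lay below both uninvolved pools, opposite to Pmel and Dct, and the gap was -0.76 at 14 weeks and -1.06 at 10 weeks. Mitf passed only when both 10-week arrays without the transgene, those with the highest array medians, were left out (adjusted p 0.0434), a setting chosen after seeing the data. In IL-17C+ uninvolved against WT skin none of the 10 passed either, where 0.0541% of all genes did, and 3 of the 10 had an unadjusted p under 0.05, as 1261 of all genes had. Dct had a value of 0.81 ± 0.35, Tyrp1 0.69 ± 0.33, Mitf 0.59 ± 0.27 and Slc45a2 0.56 ± 0.21, all with adjusted p of 0.832 or more in limma. In IL-17C+ involved against uninvolved skin 9 of 12 skeletal muscle genes fell, with list means of 7.86 and 8.18 in involved skin and 10.30 and 10.58 in uninvolved skin. Of 8 mast cell genes 4 rose there, with list means of 6.10 and 6.02 in involved skin and 4.22 and 4.86 in uninvolved skin. Cd14 alone of the macrophage genes (list median -0.08) and Krt1 of the skin genes rose too. In IL-17C+ uninvolved against WT skin 2 of 14 hair shaft genes rose. The part of these components was not tested.

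The loss of IL-6 without the transgene was read from IL-6KO against WT skin, which shares the WT pools with the comparisons above. None of the 10 genes passed, where 0.455% of all genes did, and 4 had an unadjusted p under 0.05, as 1865 of all genes had. Tyrp1 averaged 6.86 ± 0.28 in IL-6KO skin and 5.47 ± 0.70 in WT skin, a difference of 1.40 ± 0.33 (adjusted p 0.119 in limma), and its 95% interval ran from 0.68 to 2.12. Dct had a difference of 1.37 ± 0.35 (adjusted p 0.157), Tyr 0.85 ± 0.23 (adjusted p 0.191) and Pmel 0.67 ± 0.29 (adjusted p 0.554). All 4 were higher in IL-6KO skin at both ages. The groups did not overlap for 5 of the 10 genes, and for 26.4% of all genes. Slc45a2 had a value of 0.19 ± 0.21. Tyrp1 passed in a limma fit of these 4 arrays alone (adjusted p 0.034), which leaves few residual degrees of freedom. In the same comparison 7 of 14 hair shaft genes rose, with list means of 8.65 and 8.61 in IL-6KO skin and 6.39 and 5.96 in WT skin. Of 7 skin tissue genes 3 fell, the collagen genes Col1a2 (-2.29 ± 0.30), Col1a1 (-2.21 ± 0.30) and Col3a1 (-2.16 ± 0.32), with adjusted p of 0.0141 or less in limma. Of 12 skeletal muscle genes 2 fell, Pvalb and Actn3, with list means of 8.46 and 9.35 in IL-6KO skin and 10.78 and 10.05 in WT skin. The part of these components was not tested.

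**Figure D2:**
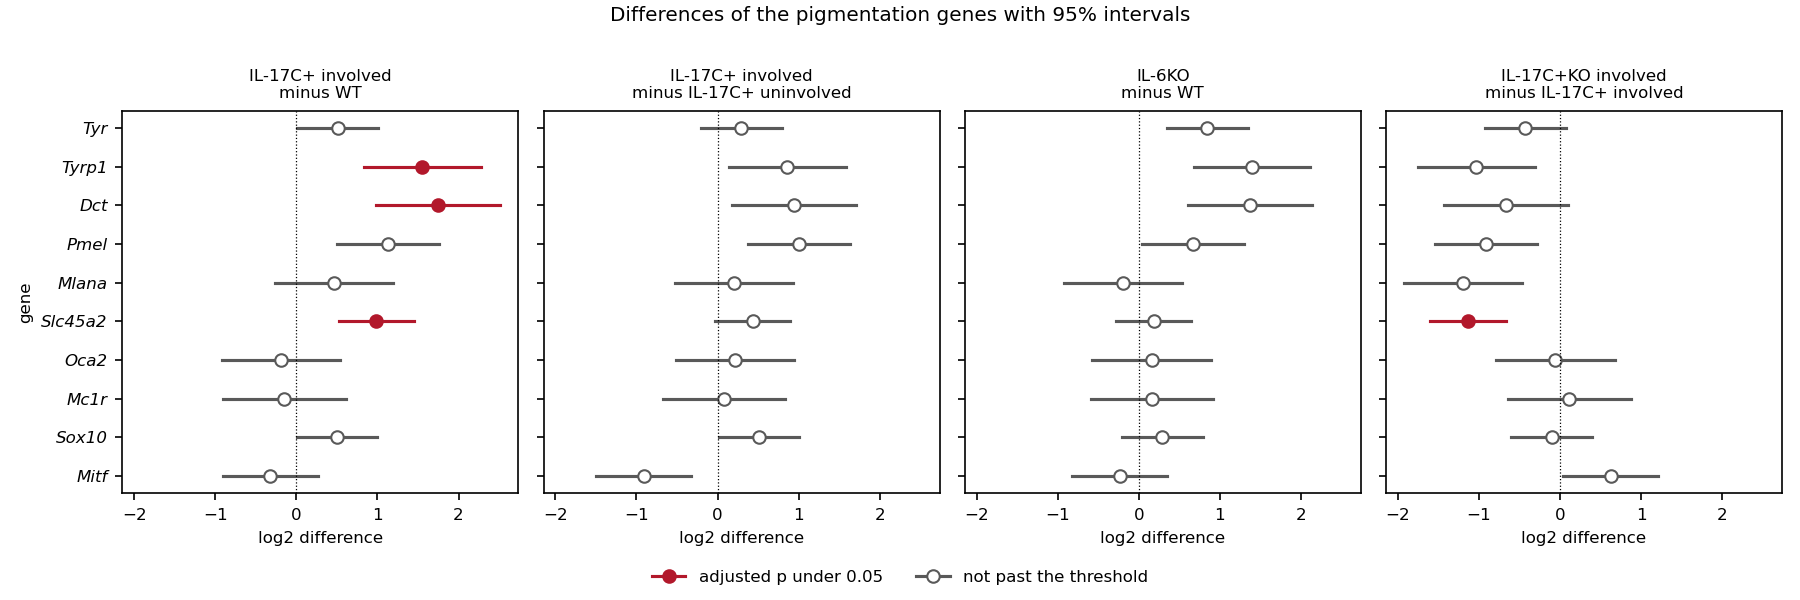
Log2 differences (x axis) of the 10 genes (y axis) in 4 comparisons, the group named first minus the group named below it, with 95% intervals from limma. Filled red points passed at an adjusted p under 0.05. They are Tyrp1 (1.55), Dct (1.75) and Slc45a2 (0.99) in IL-17C+ involved minus WT skin, and Slc45a2 (-1.13) in IL-17C+KO involved minus IL-17C+ involved skin.

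Skin labelled involved was compared between the transgenic genotypes for the loss of IL-6, with the limit of the site labels given above. Slc45a2 fell, with an average of 3.73 ± 0.14 in IL-17C+KO involved skin and 4.86 ± 0.17 in IL-17C+ involved skin (SD, n = 2 each). The difference was -1.13 ± 0.21 (SE), 2.19-fold, with an adjusted p of 0.0343 in limma, and it was -1.11 at 14 weeks and -1.16 at 10 weeks. Both IL-17C+KO involved pools were dim for it. It was the only 1 of the 10 to pass, where 0.649% of all genes passed and 0.419% fell. It did not pass when any 1 of the 4 pools was left out (adjusted p 0.135 to 0.354), although the value stayed between -1.19 and -1.07. Mlana had a difference of -1.19 ± 0.34 (adjusted p 0.171), Tyrp1 -1.03 ± 0.33 (adjusted p 0.26) and Pmel -0.91 ± 0.29 (adjusted p 0.252). For Tyrp1 the gap was -0.17 at 14 weeks and -1.89 at 10 weeks. Mlana passed beside Slc45a2 in a limma fit of these 4 arrays alone (adjusted p 0.0468), which leaves few residual degrees of freedom. The groups did not overlap for 7 of the 10 genes, and for 44.9% of all genes. Of 8 mast cell genes 3 fell in this comparison, and of 14 hair shaft genes 3 fell, with hair shaft means of 6.38 and 4.71 in IL-17C+KO involved skin and 7.30 and 8.09 in IL-17C+ involved skin. Cd14 and Col3a1 fell too, and 2 of 12 skeletal muscle genes rose. The part of these genes was not tested.

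In uninvolved skin, IL-17C+KO against IL-17C+, none of the 10 passed, where 0.712% of all genes did, and 3 had an unadjusted p under 0.05, as 1745 of all genes had. Tyrp1 had a value of 0.78 ± 0.33 and Dct of 0.77 ± 0.35, while Slc45a2 had -0.53 ± 0.21 (adjusted p 0.498). Slc45a2 was thus lower at both sites by value, and passed in involved skin alone. Whether the 2 sites differ was tested below. Hdc of the mast cell genes and Cd14 of the macrophage genes rose, 2 of 12 skeletal muscle genes fell, and their part was not tested.

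Against IL-6KO skin, the IL-17C+KO pools gave no call among the 10. In involved skin, where 0.171% of all genes passed, Tyrp1 had a value of -0.87 ± 0.33, Tyr -0.76 ± 0.23 (adjusted p 0.849) and Mitf 0.54 ± 0.27, and 2 of the 10 had an unadjusted p under 0.05, as 875 of all genes had. Of 14 hair shaft genes 7 fell in that comparison, with list means of 6.38 and 4.71 in IL-17C+KO involved skin and 8.65 and 8.61 in IL-6KO skin. In uninvolved skin, where 0.397% of all genes passed, the values ran from -0.44 for Tyr to 0.40 for Mitf, and none of the 10 had an unadjusted p under 0.05, as 1652 of all genes had. For Tyrp1 that value was 0.08, with a 95% interval from -0.64 to 0.79. Hdc of the mast cell genes, Cd14 and Itgam of the macrophage genes, Col3a1 of the skin genes and Fgf7 of the hair follicle genes rose in uninvolved IL-17C+KO skin against IL-6KO skin. Between involved and uninvolved IL-17C+KO skin none of the 10 passed, where 0.505% of all genes did. Tyrp1 had a value of -0.95 ± 0.33 (adjusted p 0.503) and Mlana -0.85 ± 0.34, and 2 of the 10 had an unadjusted p under 0.05, as 1355 of all genes had. There 4 of 14 hair shaft genes, Hdc, Cd14 and Col3a1 fell. The part of these genes in the values of the 10 was not tested.

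The difference between the transgene effects with and without IL-6 was tested as an interaction, (IL-17C+KO involved minus IL-6KO) minus (IL-17C+ involved minus WT). It rests on the same site labels, and on the label of the IL-6KO pools, where the Il17c row was high. Tyrp1 passed, with -2.43 ± 0.47 on the log2 scale, a 95% interval from -3.44 to -1.41 and an adjusted p of 0.026 in limma. Its difference was -0.27 at 14 weeks and -1.47 at 10 weeks in mice labelled KO, against 1.0 at 14 weeks and 2.11 at 10 weeks in mice with IL-6. Of all genes, 1.31% passed this interaction, 0.834% with a negative sign, and Tyrp1 was the only 1 of the 10. The interaction was -1.27 at 14 weeks and -3.58 at 10 weeks, each from 1 pool a group. Slc45a2 (-1.32 ± 0.30, adjusted p 0.0571), Dct (-2.03 ± 0.50, adjusted p 0.0782), Tyr (-1.27 ± 0.33, adjusted p 0.0957) and Pmel (-1.59 ± 0.41, adjusted p 0.1) had the same sign and missed the threshold. Mitf had 0.86 ± 0.38, and the median of the 10 was -1.14, against 0.00 for all genes.

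The call for Tyrp1 depends on single pools. It was lost when any 1 of the 2 WT or 2 IL-6KO pools was left out, without the 10-week IL-17C+ involved pool and without the 10-week IL-17C+KO involved pool (values -2.63 to -1.91, adjusted p 0.0553 to 0.167). It was lost too with age left out of the model (adjusted p 0.15). Of 14 hair shaft genes 12 passed the same interaction with a negative sign, of 13 genes of hair follicle growth 2 did, and of 12 skeletal muscle genes 9 passed with a positive one. The hair shaft mean was 6.38 and 4.71 in IL-17C+KO involved skin and 8.65 and 8.61 in IL-6KO skin, and 7.30 and 8.09 in IL-17C+ involved skin and 6.39 and 5.96 in WT skin. The part of the hair follicles in the Tyrp1 result was not tested.

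**Figure D3:**
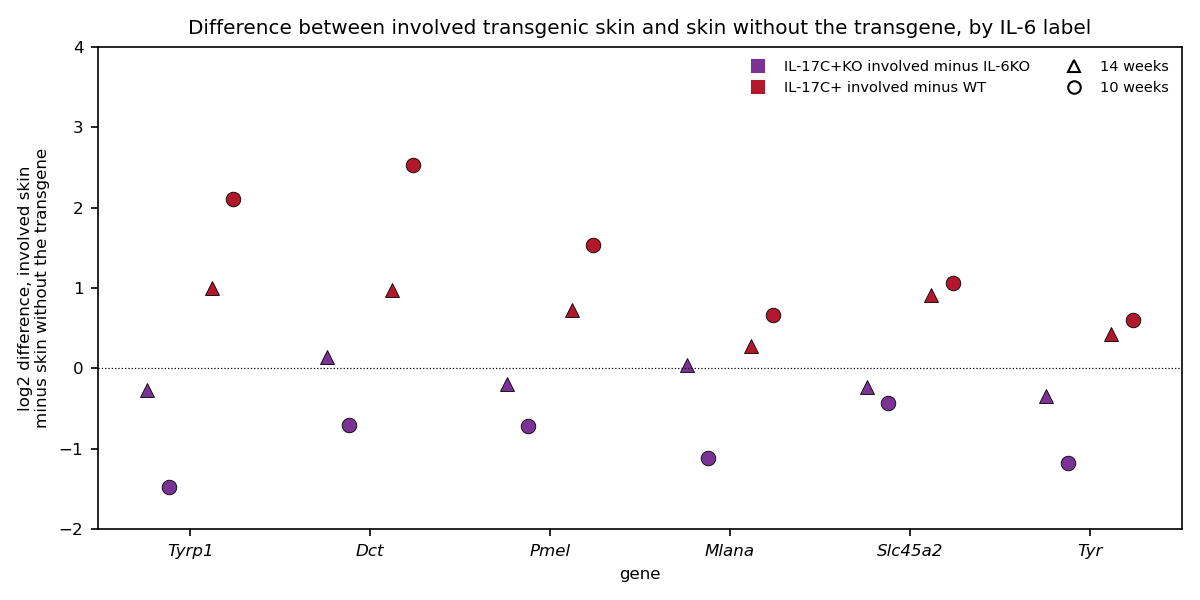
Log2 difference (y axis) between involved transgenic skin and skin without the transgene for 6 genes (x axis), without IL-6 (purple) and with IL-6 (red), triangles at 14 weeks and circles at 10 weeks, each the difference of 2 pools. Every red point of these 6 genes lies above 0. The other genes are not shown. Their differences with IL-6 at 14 and 10 weeks were -0.50 and -0.15 for Mitf, -0.70 and 0.32 for Oca2, 0.64 and -0.93 for Mc1r, and 0.60 and 0.40 for Sox10. For Tyrp1 the purple points lie at -0.27 and -1.47 and the red ones at 1.0 and 2.11.

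The interaction of site and IL-6 within transgenic skin, (IL-17C+KO involved minus uninvolved) minus (IL-17C+ involved minus uninvolved), gave no call among the 10, where 2.58% of all genes passed. Of the 10, 5 had an unadjusted p under 0.05, as 2598 of all genes had. Tyrp1 had -1.81 ± 0.47 (adjusted p 0.0678), Pmel -1.29 ± 0.41 (adjusted p 0.156), Dct -1.44 ± 0.50 (adjusted p 0.211) and Mitf 1.05 ± 0.38 (adjusted p 0.244). Slc45a2 had -0.60 ± 0.30 (adjusted p 0.496), so its fall in involved skin was not shown to differ from the value in uninvolved skin. Of 12 skeletal muscle genes 11 passed the same interaction with a positive sign. With a negative sign passed 4 of 8 mast cell genes, 2 of 8 macrophage genes and 1 of 13 genes of hair follicle growth. Their part was not tested.

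Between 14 and 10 weeks no gene of the array passed in limma (0.0% of all genes), while 1856 had an unadjusted p under 0.05. Among the 10, Tyrp1 had the largest value, 0.73 ± 0.19 (adjusted p 0.571), and Dct had 0.60 ± 0.20 (adjusted p 0.571). Both were higher at 14 weeks in 5 of 6 groups, the exception being IL-17C+ involved skin, with differences of -0.12 for Tyrp1 and -0.22 for Dct. In IL-6KO skin the difference of Dct was only 0.01, against 0.40 for Tyrp1. Tyrp1 differed most with age in IL-17C+KO involved skin (1.60) and Dct in WT skin (1.33). Each group has 1 pool at each age, so age and the spread between pools of a group cannot be told apart within a group.

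The other genes of the pathway were taken from 4 lists, and most did not pass. Of 11 further melanosome and pigment cell genes, Slc7a11, the cystine transporter that steers melanocytes towards red-yellow pheomelanin and that many stressed cells use too, accounted for the call of IL-17C+ involved against WT skin. It measured 7.66 and 6.54 in IL-17C+ involved skin, against 2.69 and 3.11 in WT skin, a difference of 4.20 ± 0.53 with an adjusted p of 0.00188 in limma. In IL-17C+KO uninvolved skin it measured 7.34 and 7.12, and in IL-17C+KO involved skin 5.16 and 2.78. It measured 3.31 and 3.36 in IL-17C+ uninvolved skin and 5.33 and 3.52 in IL-6KO skin. Slc7a11 passed in 8 of the 12 comparisons, the site by IL-6 interaction included (-7.02 ± 0.76, adjusted p 0.00032).

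Rab38, a small GTPase that carries Tyrp1 and tyrosinase to melanosomes, rose in IL-6KO skin, with 7.64 and 6.89 in IL-6KO skin and 5.79 and 5.69 in WT skin, a difference of 1.53 ± 0.28 and an adjusted p of 0.038 in limma. In IL-17C+ involved against WT skin its value was 1.21 ± 0.28 (adjusted p 0.0518). None of the 12 genes of melanosome trafficking passed in any of the 12 comparisons. The largest value among them in IL-6KO against WT skin was that of Atp7a, the copper pump that supplies tyrosinase, at 1.13 ± 0.26 (adjusted p 0.0963).

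Among 10 genes that signal to melanocytes, Hgf, a growth factor for melanocytes and many epithelia, rose in IL-17C+ involved against WT skin by 1.34 ± 0.28 (adjusted p 0.0322). It measured 5.00 and 5.11 in IL-17C+ involved skin, against 3.38 and 4.05 in WT skin. The highest Hgf values, 5.90 and 5.24, were those of IL-17C+KO uninvolved skin, against 3.16 and 3.43 in IL-17C+ uninvolved skin, a rise of 2.28 ± 0.28 (adjusted p 0.00167). Kit, the stem cell factor receptor of melanocytes and mast cells, measured 5.79 and 6.25 in IL-17C+ involved skin, against 5.16 and 4.85 in WT skin, a value of 1.02 ± 0.24 that missed the threshold (adjusted p 0.0562). Kit passed the site by IL-6 interaction with -1.51 ± 0.34 (adjusted p 0.0367), as Hgf did with -3.49 ± 0.40 (adjusted p 0.000473). Its ligand gene Kitl measured 6.02 and 5.94 in IL-17C+ involved skin, against 6.13 and 5.64 in WT skin, and the groups overlapped.

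Of 10 further transcription factors, none passed in IL-17C+ involved or IL-6KO against WT skin. Irf4, which acts with Mitf on the tyrosinase gene and is used by lymphocytes too, had -1.12 ± 0.32 in IL-17C+ involved skin (adjusted p 0.12) and -1.05 ± 0.32 in IL-6KO skin (adjusted p 0.285), both against WT skin. It passed the interaction of transgene and IL-6 with 2.17 ± 0.46 (adjusted p 0.0382), opposite in sign to Tyrp1. Tfec, a relative of Mitf, rose in IL-17C+KO uninvolved skin, with 4.31 and 4.00 there and 3.07 and 2.71 in IL-17C+ uninvolved skin, a difference of 1.26 ± 0.24 (adjusted p 0.0308). It passed the site by IL-6 interaction with -1.91 ± 0.34 (adjusted p 0.00982). It was below or near the array median throughout.

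Across the 12 arrays, which share one normalization and the same 6 groups, Tyrp1 and Dct had a Pearson r of 0.92 (Spearman rho 0.91, and 0.95 in Pearson r without the 2 arrays farthest from the median of Tyrp1). Pmel had an r of 0.85 with Tyrp1 (rho 0.86) and of 0.85 with Dct (rho 0.86), and Tyr had 0.76 with Tyrp1 (rho 0.60). Slc45a2 had only 0.29 with Tyrp1 and 0.28 with Dct. Of the 45 pairs 29 had a positive r, and all 9 pairs with Mitf were negative, from -0.57 with Pmel to -0.21 with Dct. Without the 2 farthest arrays, 7 of these 9 stayed negative, and Slc45a2 (0.19) and Sox10 (0.11) had positive values. Among the list means, the highest r of Mitf was 0.85, with the mean of the 7 Schwann cell genes (rho 0.94, 0.77 without the 2 farthest arrays, 0.70 at 14 weeks and 0.96 at 10 weeks). Sox10 had -0.40 with that mean. Mitf had 0.69 with the melanosome trafficking mean, 0.67 with that of the further transcription factors and 0.58 with that of skeletal muscle. Without the 2 farthest arrays these were 0.48, 0.43 and 0.47. They were 0.39, 0.39 and 0.81 at 14 weeks and 0.76, 0.76 and 0.60 at 10 weeks. With the mast cell mean Mitf had -0.42, and with the macrophage mean -0.02. These values describe 12 pools and were given no p.

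Tyrp1 had an r of 0.68 with the mean of the hair shaft genes (rho 0.50). This fell to 0.26 without the 2 arrays farthest in hair shaft mean, and it was 0.34 at 14 weeks and 0.85 at 10 weeks. Slc45a2 had 0.44 with the same mean, and Mitf -0.15. With the mean of the skeletal muscle genes Tyrp1 had -0.74 (rho -0.75, -0.72 without the 2 farthest arrays, -0.79 at 14 weeks and -0.85 at 10 weeks). With the mean of the 10 melanocyte signal genes it had 0.80 (rho 0.79, 0.73 without the 2 farthest arrays, 0.77 at 14 weeks and 0.85 at 10 weeks). The genes outside the list whose profile was most like the mean of the 10 centred genes over the 12 arrays were Marcksl1 (r 0.90), H2ac10 (0.90), Fchsd1 (0.89), Syt4 (0.89), Ppif (0.88), Cmtr2 (0.87), Gjb2 (0.86) and Cstb (0.86). They were picked for the highest r of all genes compared and were given no p, so their r describes these arrays only. Tyrp1 and Dct varied most of the 10 (SD over the arrays 0.76 and 0.74), so they weigh most in that mean. Gjb2, a gap junction gene of epithelia, ranged from 4.85 to 9.02 over the arrays, and Marcksl1 from 4.54 to 5.59.

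**Figure D4:**
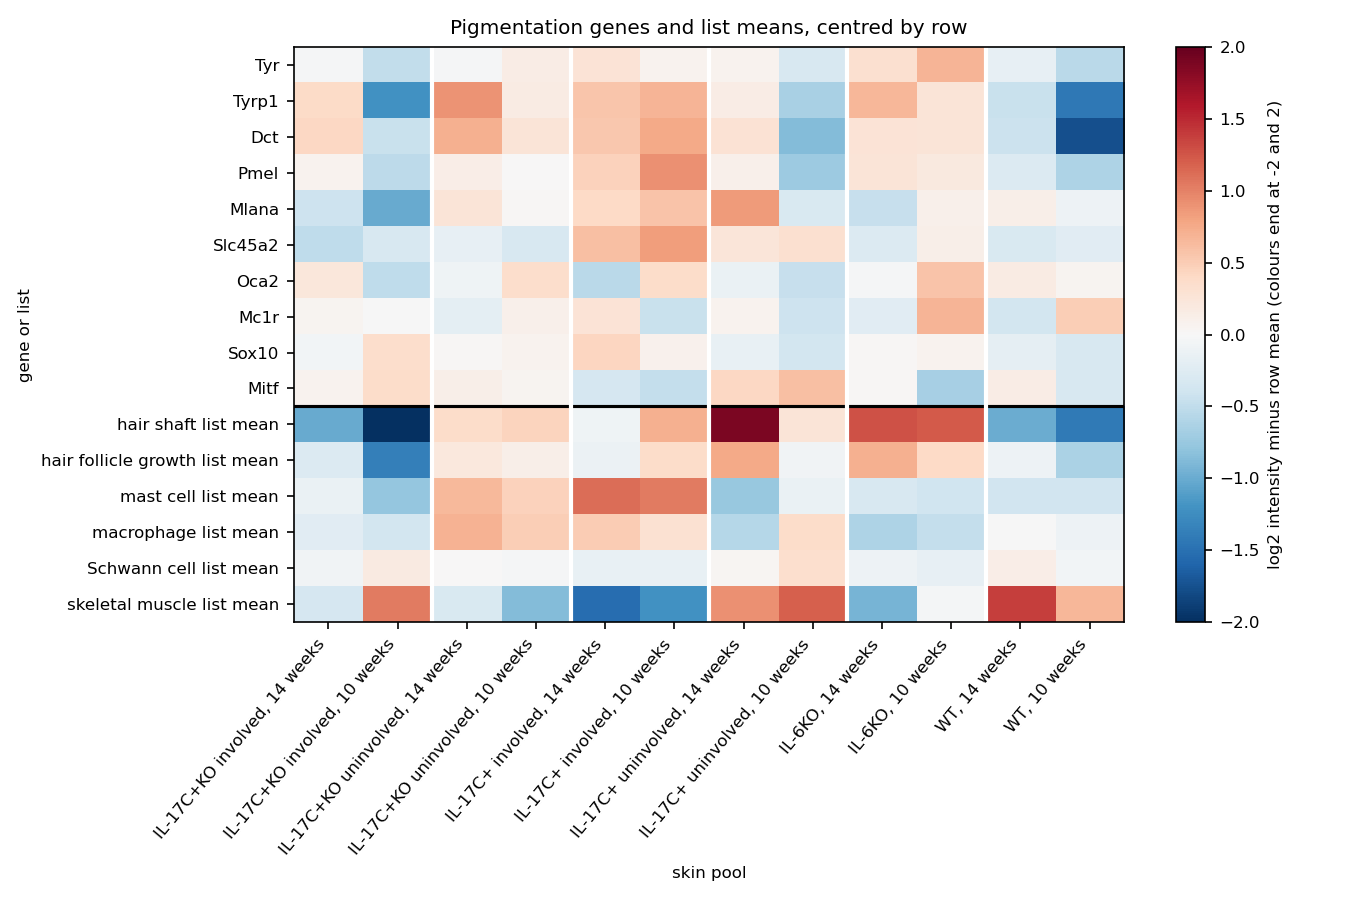
Log2 intensity minus the row's own mean (colour, ending at -2 and 2) of the 10 genes and of 6 marker list means (y axis) in the 12 pools (x axis). Tyrp1, Dct and Pmel share their pattern and are lowest in the 10-week WT, IL-17C+ uninvolved and IL-17C+KO involved pools, and Mitf runs the other way in the IL-17C+ groups. The hair shaft list mean is lowest, at 4.71, in the 10-week IL-17C+KO involved pool and highest, at 9.26, in the 14-week IL-17C+ uninvolved pool.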

How the data were processed

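The authors deposited expression array intensities for 12 pools of mouse dorsal skin. Per the submitters' processing notes they were made with RMA in Affymetrix Expression Console, with no version in the sources used here. These intensities were on a linear scale, so log2 was taken here. Of 41345 rows, 23521 name 1 gene, and for the 1082 genes with several rows the one with the highest mean was kept, which left 22180 genes. Groups follow the sample titles.

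Differences were tested with limma 3.58.1 in R 4.3.3 (lmFit, then eBayes with an intensity trend) in 1 model of group plus age over all 12 arrays, with 5 residual and 7.65 prior degrees of freedom. The threshold was an adjusted p of 0.05 (Benjamini-Hochberg, over all genes). The method was tested on simulated data. The 2 pools of a group differ in age and serve as its replicates, so the p-values measure the spread between pools, and their number limits the precision. Age was a block by design. The correlation of age differences between groups ran from -0.21 to 0.52 (median 0.067).

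The 10 genes, the pathway and marker lists and the comparisons were chosen with earlier results of these data known. Named genes are the 10, up to 3 members of each list that passed with the largest differences and the 2 largest that did not, and the 8 genes most alike in profile by Pearson r, leaving out predicted loci, small RNAs and genes above the array median in fewer than 2 arrays. Schwann cell genes without a row of their own (3 of 10) and other list members without one were not used here. Kitl was named after its values were seen. Promoter sequences come from RefSeq, GRCm38.p6. Alternatives were no age block, a block of genotype and age, no trend, a filter on dim genes, a further quantile normalization, the mean of a gene's rows, fewer arrays and each pool left out.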

Additional observations from a re-analysis of the deposited data

Results flagged for a closer look

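The transgene by IL-6 interaction of Tyrp1 in involved skin was -2.43 ± 0.47 on the log2 scale (adjusted p 0.026 in limma). Tyrp1 averaged 5.99 in IL-17C+KO involved, 6.86 in IL-6KO, 7.02 in IL-17C+ involved and 5.47 in WT skin. The step from WT to IL-6KO skin, both without the transgene, thus enters the interaction too. By the labels, the difference between involved transgenic skin and skin without the transgene differed between mice labelled KO and mice with IL-6. By pool, the difference was -0.27 at 14 weeks and -1.47 at 10 weeks without IL-6, against 1.0 and 2.11 with IL-6. It passed in 7 of 15 alternatives, with values from -2.95 to -1.91 and adjusted p from 0.00517 to 0.167.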

How the results depend on the processing

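No direction reversed in any alternative. For the 24 single-gene results, 262 alternatives kept the side of the threshold, 27 lost it and 9 gained it. Of the counts of genes passing, 124 moved little or not at all, 17 went down and 8 up. With no replicate block (age left out), 1 of the 10 genes (Slc45a2) passed for IL-17C+ involved against WT skin, in place of 3, and 0 passed the transgene by IL-6 interaction, in place of 1. A replicate block of genotype and age could be fitted only for involved against uninvolved skin of both genotypes and for the site interaction, where it called none of the 10, as without it. In a fit of the compared arrays alone, the count was 1 (Tyrp1) for IL-6KO against WT skin and 2 (Mlana and Slc45a2) for IL-17C+KO involved against IL-17C+ involved skin. The filter on dim genes gave 2 calls (Tyrp1 and Slc45a2) for the transgene interaction and 1 (Tyrp1) for the site interaction. A further quantile normalization gave 2 (Tyrp1 and Slc45a2) for the transgene interaction. Leaving out 1 pool at a time gave 0 to 2 calls for IL-17C+ involved against WT skin, 0 in each case for IL-17C+KO involved against IL-17C+ involved skin, 0 to 1 for the transgene interaction and 0 to 1 for the site interaction, where Tyrp1 passed without the 14-week pool of IL-17C+ involved or of IL-17C+KO involved skin. Without both 10-week arrays of mice that lack the transgene, an alternative added after seeing the data, the counts were 0 for IL-17C+ involved against WT skin, 1 (Mitf) for IL-17C+ involved against uninvolved skin and 0 for the transgene interaction. Over all genes, the 399 calls for IL-17C+ involved against WT skin ranged from 65 to 883 over the alternatives, the 357 for IL-17C+ involved against uninvolved skin from 63 to 770, the 144 for IL-17C+KO involved against IL-17C+ involved skin from 23 to 436, the 101 for IL-6KO against WT skin from 7 to 266, the 290 of the transgene interaction from 71 to 504, and the 573 of the site interaction from 208 to 864. With 1 pool left in a group, that pool is assumed to vary like the other groups, and fewer arrays leave fewer degrees of freedom. Each cause of the remaining changes was not tested. Rows below the array median, those of Tyr and Mc1r on all 12 arrays and of Slc45a2 in both WT and both IL-17C+KO involved pools, limit what can be read from their differences.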
